A study of Mus musculus with 6 samples.

Results

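The regions described here are stretches of CG methylation that lie in annotated repeats outside exons and that the authors listed as differing between embryos given sperm small RNAs of depressed and of normal mice. A listed region was taken as a member when it was in the CG context, had at least 1 repeat entry and had no exon, 5′ UTR or 3′ UTR entry. Chromosomes X and Y were left out. Of 9707 distinct regions in all contexts, 872 were CG regions off chromosomes X and Y, and 337 of these (38.6%) were members, 2 of them on a scaffold or patch. Another 45 CG regions had a repeat entry but also touched an exon or UTR and were left out.

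The samples were 6 single embryos of C57BL/6 background at embryonic day 4.5, the late blastocyst, kept in culture medium throughout. The normal group held 3 embryos that, as fertilised eggs, had been microinjected with sperm small RNAs of normal mice at 2 ng/µl, and the depressed group 3 embryos that had received those of stress-induced depressed mice at the same concentration. Embryos were collected about 108 h after injection, and the DNA of each was sequenced whole-genome after bisulfite treatment, which makes unmethylated cytosines read as thymine. The number of donor males behind each RNA preparation is not described, and no uninjected group is among the samples used here. The authors' deposited table gives 1 mean level per group and region and 0 columns of values per embryo, so no level below has a spread between embryos, the read depth behind it is unknown, and no test between embryos could be made. Every interval is at the 95% level and runs over regions or, for the starts of L1 entries, over repeat entries. Each is an exact binomial interval of a share or an order-statistic interval of a median, and describes the list. A level averages over all cells of an embryo, so fewer methylated cells of one lineage and less methylation per cell cannot be told apart.

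Much of the mouse genome is made of copies of transposable elements, and CG methylation is one of the means by which most of them are held silent. B1, B2, B3 and B4 are short interspersed elements (SINEs), which are copied through RNA made by RNA polymerase III and depend on the machinery of L1. L1 is the long interspersed element that still moves in mice, and its promoter lies at its 5′ end, which most copies have lost. Long terminal repeat (LTR) elements descend from retroviruses and include the intracisternal A particles (IAP) and the MaLR families MT and ORR1. Methylation falls after fertilisation and is near its lowest in the blastocyst, while IAP copies are known for keeping more of it than most other sequence.

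For 2 members the underlying bases could be read from RefSeq windows of 300 bases around gene starts (GRCm38.p6, the mm10 assembly), and they are shown to make plain what a listed region looks like. The first is an IAP long terminal repeat, IAPLTR2a2_Mm, at the start of the long non-coding RNA gene Gm13391 (chr2:6465829-6466128, plus strand); capitals mark the 32 bases that belong to the listed region, which runs on past the window to 6466235. The second is the whole of a 201-base region with an entry for ID_B1, a B4-family SINE, at a start of the long non-coding RNA gene Gm11476 (chr2:167599878-167600078, plus strand); capitals mark CG dinucleotides.

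Gm13391 IAPLTR2a2_Mm: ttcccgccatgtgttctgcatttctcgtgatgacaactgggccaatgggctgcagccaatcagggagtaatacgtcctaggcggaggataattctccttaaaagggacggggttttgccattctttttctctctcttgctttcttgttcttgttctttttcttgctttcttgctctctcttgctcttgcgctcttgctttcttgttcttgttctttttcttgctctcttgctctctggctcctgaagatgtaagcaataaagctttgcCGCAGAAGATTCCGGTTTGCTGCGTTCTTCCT
Gm11476 ID_B1: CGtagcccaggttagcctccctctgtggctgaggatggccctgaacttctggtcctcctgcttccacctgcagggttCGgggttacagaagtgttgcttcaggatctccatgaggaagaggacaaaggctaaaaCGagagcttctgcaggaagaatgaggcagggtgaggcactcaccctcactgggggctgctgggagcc

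At the IAP long terminal repeat the authors' mean was 45.2% in the normal and 4.10% in the depressed group over 139 bp and 19 listed cytosines. At the ID_B1 region it was 66.2% in the normal and 3.86% in the depressed group over 4 listed cytosines. The IAP window held 9 CGs in 300 bases, or 3 per 100 bases, against a median of 2.33 over all 32851 RefSeq windows, while the ID_B1 region held 3 CGs and ended on the C of a further one, 1.49 per 100 bases. The IAP window held CCAAT at 2 places and AATAAA, the usual polyadenylation signal, at 1 place, all on the plus strand, while 37.4% of all windows held CCAAT and 19.6% AATAAA on either strand. The 4 listed cytosines of the ID_B1 region equal its CG sites, the one cut at the end included. In all 5 CG regions that lay wholly inside such a window, 1 of them on chromosome X, the listed number was 1 per CG site. Both edges fell on the C of a CG in 2 of these 5 and on the G, where the cytosine of the minus strand lies, in the other 3. The listed number is called the number of cytosines here, and in these 5 regions it counted each CG once.

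Nearly all members were less methylated in the depressed group. Of 337 members, 333 were lower and 4 were higher in that group, so 98.8% were lower (95% exact interval 97.0 to 99.7%), against 99% of all 872 CG regions off X and Y. This share is near that of the whole CG list, and the regions were listed because the groups differed. The median level was 70.1% in the normal group (interval 69.4 to 71.3%, quartiles 66.1 and 75.6%) and 4.51% in the depressed group (interval 4.01 to 4.88%, quartiles 2.46 and 7.78%). In the normal group 273 members (81.0%) stood between 60 and 80%, as did 691 of all 872 CG regions off X and Y. In the depressed group 281 members (83.4%) stood under 10%, as did 683 of the 872.

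**Figure D1:**
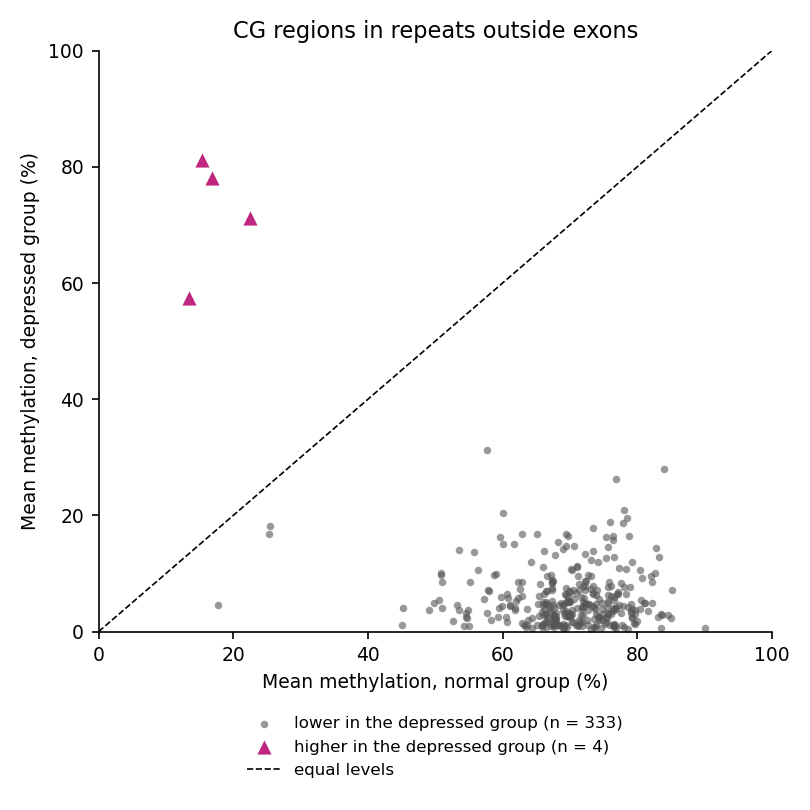
Authors' mean methylation of each member in the normal group (x axis, %) and the depressed group (y axis, %), with the line of equal levels; circles are the 333 lower and triangles the 4 higher members. Most lower members form 1 cloud around the medians of 70.1% and 4.51%, and the 4 higher ones sit apart between 57.4 and 81.1% in the depressed group.

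The members had median levels, lengths and cytosine numbers near those of the other CG regions, while long regions were more frequent among them than among intronic regions without repeats, at 11.3% over 500 bp against 2%. CG regions in introns without repeats, 250 in number, had medians of 71.1% in the normal and 5.05% in the depressed group, and the 275 that touched exons or UTRs had 69.2 and 5.72%. Members had a median length of 118 bp and 5 cytosines, against 107 bp and 5 cytosines in introns without repeats and 124 bp and 6 cytosines at exons. Only 1 member overlapped a region of another context (0.297%, exact interval 0.00751 to 1.64%), as did 2 of the 250 intronic regions (0.8%), whereas 39 of the 275 exonic ones did (14.2%, interval 10.3 to 18.9%). These sets were compared as lists, with no test, since regions of 1 list share the same 6 embryos.

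Members carried 467 repeat entries with 180 different repeat names, 1 entry in 265 members and up to 12 in the others. SINE entries were found in 146 members (43.3%), LTR entries in 122 (36.2%) and L1 entries in 85 (25.2%), with members of several families counted in each. Among SINEs, 63 members had a B4 entry, 54 a B1, 21 a B3, 11 a B2, 20 a MIR and 4 an ID entry. Among LTR elements, 63 had an ERVK entry, 43 MaLR, 11 ERVL and 11 ERV1. How common each family is in the genome, or among the repeats the libraries could cover, was not measured here, so these counts describe the list only.

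B1 derives from the RNA of the signal recognition particle. Members with a B1 entry had a lower median in the depressed group than those with B2, B3 or B4 entries, but the intervals overlap. They ran from 2.23 to 3.86% for B1, 1.58 to 6.54% for B2, 2.39 to 7.16% for B3 and 3.63 to 5.12% for B4. Medians under that of B1 were those of the few members with an ERVL entry, at 2.36% (11 members), or an ID entry, at 1.67% (4 members). The 54 members with a B1 entry had medians of 70.2% in the normal and 2.96% in the depressed group (quartiles 1.54 and 4.36%). In the depressed group 16 of them stood under 2% (29.6%, interval 18.0 to 43.6%). So did 69 of all 337 members and 163 of all 872 CG regions off X and Y. With the 28 members that had entries of B1 alone, the medians were 69.5 and 2.94%. By name, members with a B1_Mus2 entry had 72.0 and 2.14% (14 members), with B1_Mus1 70.2 and 2.46% (10) and with B1_Mm 67.6 and 3.15% (11). With other B1 names the depressed-group medians were 3.49% for B1_Mur (9 members), 3.80% for PB1D (8) and 3.81% for B1F (7). The intervals of these names overlap, with 1.05 to 4.42% for B1_Mus2 and 2.04 to 5.72% for B1F, so no order by name is shown. A region with several names counts under each, and 5 of the 10 B1_Mus1 and 4 of the 7 B1F members were over 500 bp. These medians are therefore of regions, not of single copies. All 54 B1 members were lower in the depressed group, as were 98.8% of all members.

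Among members with B1 as their only repeat, the largest absolute statistic lay in an intron of Zmynd8, which encodes a chromatin reader (chromosome 2, 165892948 to 165893193), at 76.4% in the normal and 4.11% in the depressed group. This region was 246 bp long with a B1 entry of 147 consensus bases, so its levels are not those of the copy alone. A region of 54 bp with entries for B1_Mus2 and the LTR repeat MT2B, 58848 bp from the nearest protein-coding gene, Rsl24d1, had the highest normal level of all members, 90.02%, and 0.659% in the depressed group. It lay on chromosome 9 (73182181 to 73182234) and had 4 cytosines. The B1 member with the largest absolute statistic of all (-76.8) spanned 4432 bp on chromosome 10 (8131409 to 8135840) with 9 repeat entries of several families, so that no single repeat can be credited with its levels of 49.0% in the normal and 3.77% in the depressed group.

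B2 and B3, SINEs derived from a transfer RNA, had few members. The 11 with a B2 entry stood at medians of 70.4 and 4.04% and the 21 with a B3 entry at 72.2 and 4.53% in the normal and depressed group. The B2_Mm1a copy in an intron of the zinc finger gene Zfp609 was at 79.7% in the normal and 3.73% in the depressed group. B2 members with a larger statistic were long regions with several entries, in introns of the phosphatase gene Ctdsp2 (3574 bp, 70.4% against 1.58%) and of Stox1 (3081 bp, 74.7% against 2.04%). A region of 237 bp with a B3 entry of 216 consensus bases lay in an intron of Lrrc20 (chromosome 10, 61498080 to 61498316) and held 12 cytosines. It had 85.2% in the normal and 7.16% in the depressed group. The difference was -78.1 points, with one of the larger statistics of all members (-149).

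B4 elements, built from a B1-like and a transfer-RNA-like part, were the most frequent SINEs. Their 63 members had medians of 70.4% in the normal and 4.51% in the depressed group (quartiles 2.91 and 7.02%). By name, the medians were 71.8 and 4.70% for B4A (25 members), 72.2 and 4.67% for ID_B1 (19), 69.8 and 3.83% for RSINE1 (16) and 75.6 and 3.48% for the name B4 itself (8). A region of 344 bp with an RSINE1 entry of 140 consensus bases lay in an intron of Rab36, a small GTPase gene (chromosome 10, 75043482 to 75043825). It held 14 cytosines and was at 75.7% in the normal and 3.10% in the depressed group, levels that are not those of the copy alone. An 18-cytosine region in an intron of Ago2, the Argonaute that cuts RNA (chromosome 15, 73129820 to 73129884), had entries for RSINE1 and RLTR20A4 and stood at 55.7 and 13.7%.

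The RSINE1 region with the most cytosines, 71 in 292 bp, lay within a CpG island and its shore in an intron shared by Cmss1 and Filip1l (chromosome 16, 57391395 to 57391686). Its RSINE1 entry spans 125 consensus bases, so the cytosines and levels are not those of the copy alone. The region had the largest absolute statistic of all members (-346) but one of the smallest differences, 17.7% in the normal and 4.51% in the depressed group. It was also the single member that overlapped a region of another context, a CHH region at 9.13% in the normal and 0.718% in the depressed group, H being A, C or T. How the statistic is computed is not stated.

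L1 copies split by name. L1Md names, among them the A, Tf and Gf subfamilies with copies that still move, made up 57 of the 97 L1 entries and fell in 54 members. These had medians of 66.6% in the normal group (quartiles 60.1 and 70.9%) and 8.44% in the depressed group (quartiles 4.64 and 14.004%). The 33 members with another L1 name, such as Lx or L1M, had 69.4% in the normal and 3.24% in the depressed group (quartiles 1.21 and 4.70%), and 2 members had entries of both kinds. In the depressed group 3 of the 54 L1Md members stood under 2%, against 69 of all 337 members. The count was 11 of the 33 members with other L1 names and 16 of the 54 B1 members.

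The L1Md median in the depressed group was above that of B1 and of other L1 names both on chromosomes 9 and 10 and elsewhere, with no test. On chromosomes 9 and 10, the depressed-group medians were 7.55% for 22 L1Md members, 3.24% for 27 members with other L1 names and 2.91% for 32 B1 members. On the other chromosomes, the medians were 9.08% for 32 L1Md members, 2.59% for 6 members with other L1 names and 3.24% for 22 B1 members. Within L1Md, the medians in the depressed group were 10.7% for A copies (25 members), 8.44% for Tf (12) and 4.93% for F (8). Near-identical copies are hard to tell apart by short reads, and how reads matching several copies were placed is not stated; its part in these levels was not tested.

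**Figure D2:**
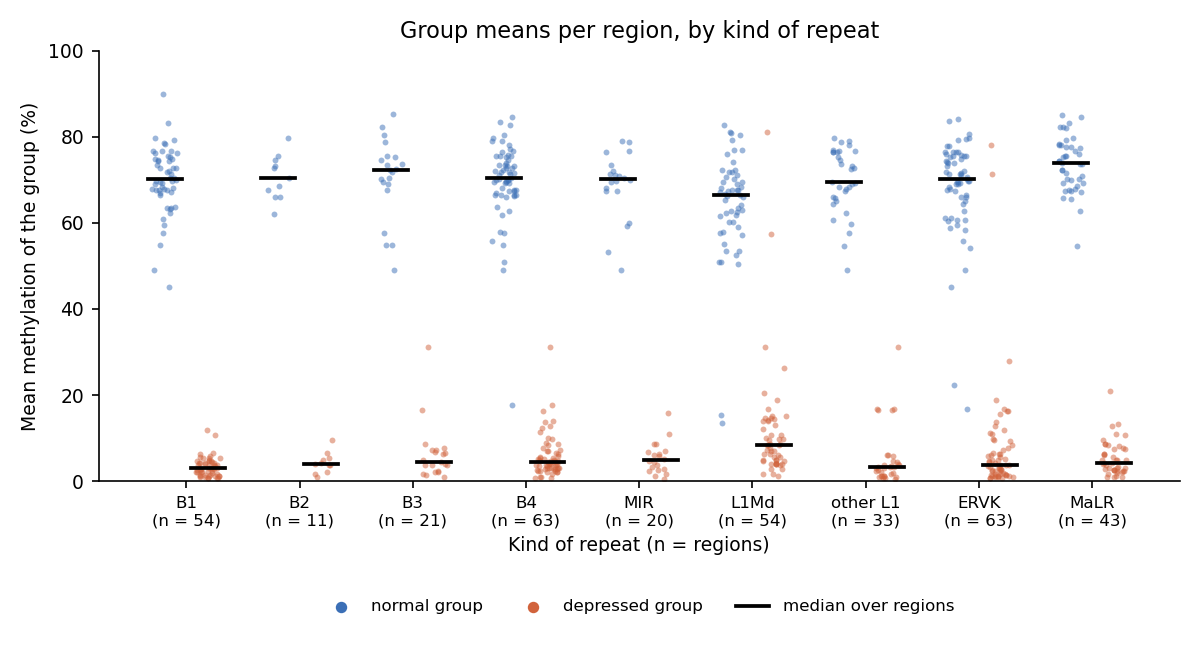
Authors' group means per region (y axis, %) for members by kind of repeat (x axis), with the normal group left, the depressed group right and bars at the medians over regions; a region with several kinds appears under each. In the depressed group the medians lie between 2.96% for B1 and 8.44% for L1Md.

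L1Md entries mostly began near the 5′ end of the element. The table gives a start and an end for each repeat entry, read here for L1 as positions in the repeat consensus, and 47 of 57 L1Md entries (82.5%, exact interval 70.1 to 91.3%) began within the first 500 bases of it. These 47 starts ran from base 1 to base 440, so some of the copies lack bases at the 5′ end. The median extent of the 57 L1Md entries was 5459 consensus bases. Entries that share a region or a copy were each counted, so they are not independent. Of the 40 entries with other L1 names, 3 began within the first 500 bases and 33 began past base 4000, with a median extent of 352.5 bases. In the CHH regions of the same table, 9 of 100 L1Md entries began within the first 500 bases (9%, interval 4.20 to 16.4%), and in the CHG regions 4 of 7 did (57.1%, interval 18.4 to 90.1%). The table does not say where in a copy the region lies, and the share among all L1Md copies of the genome was not measured.

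**Figure D3:**
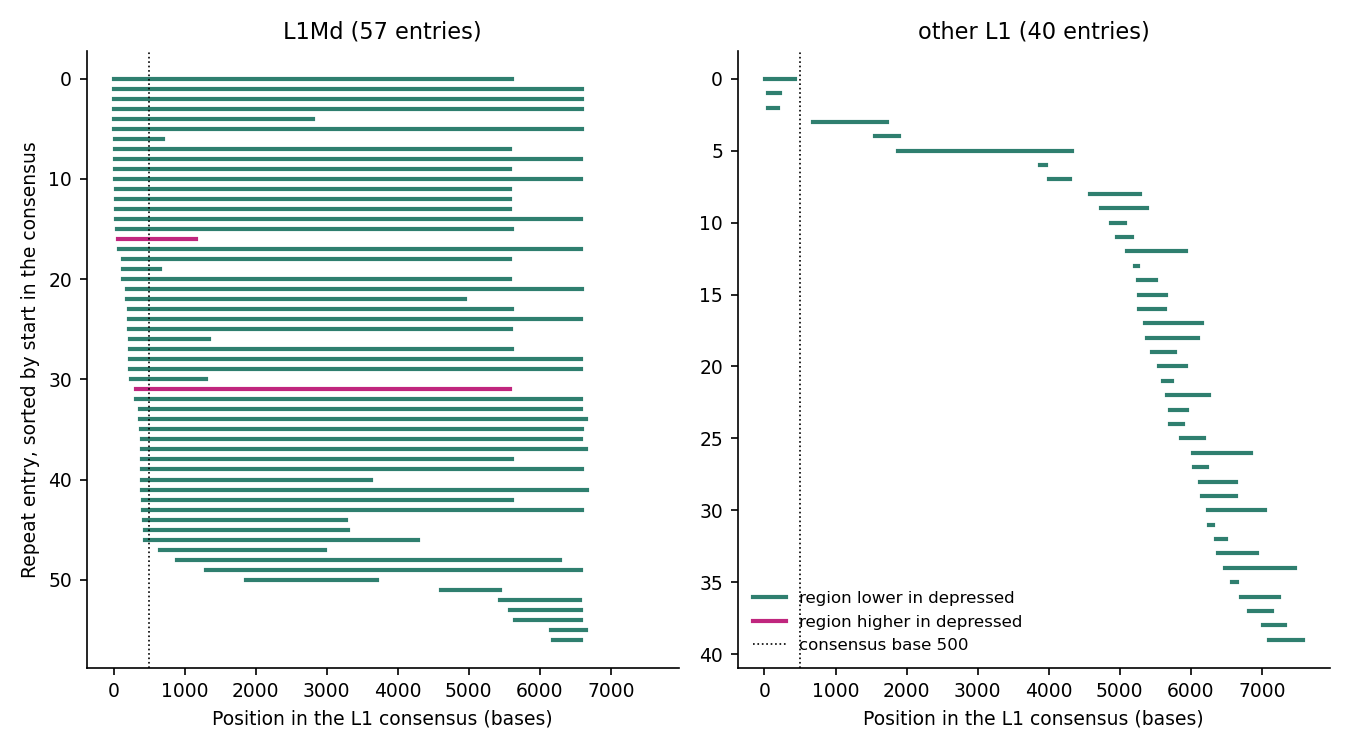
Extent of each L1 copy in its consensus (x axis, bases) for the 57 L1Md entries (left) and the 40 entries with other L1 names (right), 1 line per entry sorted by start; the dotted line marks base 500. L1Md copies mostly start left of the dotted line and run along most of the consensus, while the others are mostly short pieces of the 3′ side.

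A single L1 copy could hold several members. On chromosome 3, 3 neighbouring regions with no gene entry each had an L1MdA_II entry that covers consensus bases 1 to 6599. The normal and depressed levels were 69.0 and 14.2% (158736447 to 158736620), 70.6 and 14.7% (158737279 to 158737487) and 66.2 and 13.95% (158737695 to 158737903). Their starts were 832 and 416 bp apart, the first being 2 times the second. The promoter of mouse A-type L1 is known to consist of tandem monomers. Among members with L1 as their only repeat, the largest absolute statistic lay in an L1MdA_II copy on chromosome 1 (85339955 to 85340156), at 64.2% in the normal and 12.0% in the depressed group.

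LTR elements of the ERVK class, to which IAP belongs, had 63 members with medians of 70.3 and 3.79% in the normal and depressed group (quartiles in the depressed group 1.65 and 8.89%). The 15 members with an IAP entry had 67.4 and 8.49%, and 2 of them were higher in the depressed group. The interval of their depressed-group median, 2.80 to 16.3%, covers the 4.51% of all members. The 12 with an IAP long terminal repeat entry had 67.5 and 4.67%. MaLR elements had 43 members at 73.9 and 4.26%, with MT repeats at 76.7 and 5.26% (18 members) and ORR1 repeats at 73.7 and 4.04% (19 members). The 16 members with an RLTR20 entry stood at 72.6 and 4.64%. The LTR member with the largest absolute statistic (-126) was a region of 681 bp with 2 MTD entries in an intron of Met, the receptor of hepatocyte growth factor (chromosome 6, 17536420 to 17537100; 18 cytosines), at 78.1% in the normal and 20.9% in the depressed group.

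All 4 members that were higher in the depressed group carried an L1Md or IAP entry, as did 69 of the 337 members (20.5%). An L1MdA_III copy on chromosome 1 (111465363 to 111465549; 4 cytosines) was at 15.3% in the normal and 81.1% in the depressed group. An L1MdN_I copy on chromosome 2 (56766222 to 56766282; 4 cytosines) was at 13.4 and 57.4%. An IAPEy internal part, also on chromosome 2 (148917528 to 148917579; 5 cytosines), was at 16.8 and 78.2%. The junction of IAPLTR2_Mm and an IAPEz internal part in an intron of Gabrg3, a GABA receptor subunit gene (chromosome 7, 57221097 to 57221215; 13 cytosines), was at 22.4 and 71.3%.

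Most members with an L1MdA or IAP entry were lower in the depressed group. The 2 other IAPLTR2_Mm members, both on chromosome 9 (12021307 to 12021422 and 12026959 to 12027068), were at 71.3 and 68.3% in the normal group and at 9.57 and 15.5% in the depressed group. Of 25 members with an L1MdA entry, 24 were lower in the depressed group, and so were 13 of the 15 with an IAP entry. Of the 4 members with an IAP internal part, 2 were lower and 2 were higher, and the name IAPEy-int occurred in no other member. None of the 4 higher members lay on chromosomes 9 or 10, which held 189 members. Of the 535 other CG regions, 5 were higher, and 3 of these 5 lay on chromosomes 9 and 10.

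The mouse major satellite, the tandem repeat next to centromeres, gave the smallest differences. Its 2 GSAT_MM regions, on chromosome 9 (3018419 to 3018478) and on the scaffold JH584304.1, were each 60 bp long with 4 cytosines. Their repeat entries run from 1 to 38428 and to 47113, so for this tandem repeat these are not positions within a single unit. The regions were at 25.4 and 25.3% in the normal group and at 18.2 and 16.9% in the depressed group, a difference of -7.26 and -8.43 points. Both differ from the median member by a normal level far under 70.1%. Satellite copies are near-identical, so reads may not belong to the place listed, which was not tested. Among other repeats, a region of 232 bp lay in an intron of Anks1b, a gene for a postsynaptic protein (chromosome 10, 90947787 to 90948018). It had 11 cytosines and 1 IMPB_01 entry of 86 consensus bases, and was at 77.1 and 6.77%. A region of 4156 bp with entries for L2 and MLTR14, 157120 bp from Rpl14, was at 77.2 and 6.48%.

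Promoter entries were found for 18 members (5.34%), against 13.1% of all CG regions off X and Y. The share was 9.6% in introns without repeats and 23.3% in regions touching exons or UTRs. Only 2 of the 535 CG regions that were not members lacked a gene entry, against 153 members, so promoter share and membership are not independent. All 18 members with a promoter entry were lower in the depressed group, as were 98.8% of all members. Their medians were 69.7% in the normal and 2.96% in the depressed group. The strongest statistic lay at Rnf123, a ubiquitin ligase gene (L1M3 and B3 entries, chromosome 9, 108060178 to 108061274), at 73.6 and 2.18%. Mras, which encodes a Ras-like GTPase, had 69.9 and 2.76% at RSINE1 and MIR entries. Rbbp8, a gene of DNA end resection, had 62.8 and 8.49% at IAPLTR1_Mm and B4A entries. Eya2, a gene for a transcriptional cofactor, had 73.3 and 4.32% at an ID_B1 copy.

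Genes for metabolic enzymes were among the named promoter members. Shmt2, the mitochondrial serine hydroxymethyltransferase gene, had 74.3% in the normal and 2.33% in the depressed group at B1_Mus2 and ORR1A3-int entries. Hk1, the gene of a hexokinase, had 78.7% in the normal group and the lowest level of any member in the depressed group, 0.461%, at a MIRc entry (chromosome 10, 62318427 to 62318598). That region was 172 bp long and the entry spans 146 consensus bases, so the level is not that of the copy alone. A B1F2 copy in the promoter entry of a gene without a symbol in the table (ENSMUSG00000037064) was at 60.8 and 5.72%. A MER57D copy in an intron of Popdc3 and the promoter entry of another gene without a symbol was at 78.0 and 4.43%. How the authors defined a promoter is not stated.

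Introns were listed for 176 members (52.2%), against 68.2% of all CG regions off X and Y, and 152 members had a repeat as their only entry. Of these 152, 121 were over 10 kb and 49 over 100 kb from the nearest protein-coding gene in RefSeq. Of the 535 CG regions that were not members, 2 had no gene entry, against 153 of the 337 members. A listed region without a repeat thus nearly always had a gene entry, so the intron share and membership are not independent. Intronic members had medians of 71.3 and 4.14% and those with no other entry 69.5 and 4.69% in the normal and depressed group. Ank3 and Osbpl10 had the most members, 3 each. In Ank3, the ankyrin gene of the axon initial segment, a region of 871 bp with an MTD entry (consensus bases 43 to 419) was at 82.04 and 9.495%. Another, of 728 bp with an IMPB_01 entry (bases 7 to 80), was at 69.8 and 2.84%. Both regions are longer than their entries, so these levels are not those of the copies alone. The last, with MTE2a and B3A entries, was at 82.3 and 4.88%. In Osbpl10, a gene for an oxysterol-binding protein, 2 ID_B1 copies were at 73.4 and 17.8% and at 78.9 and 7.67%, and a region with MER119, RLTR20A4 and RMER5 entries was at 75.6 and 4.96%. All 3 CG regions of Osbpl10 and 3 of the 9 of Ank3 were members; the other genes with 2 members each numbered 8, among them Hk1, Lingo1 and Syn3.

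Chromosomes 9 and 10 held 92 and 97 members, together 56.1% (exact interval 50.6 to 61.5%), against 60% of the 535 other CG regions. Chromosome 2 followed with 44 members and chromosome 1 with 27, while the other autosomes held 1 to 10 each. Members on chromosomes 9 and 10 had medians of 72.3% in the normal and 3.91% in the depressed group, and the 148 members elsewhere 68.3 and 4.86%. The other CG regions showed a gap of the same direction in the normal group, with 72.4% on chromosomes 9 and 10 and 66.8% elsewhere, and of the opposite direction in the depressed group, with 5.82 and 4.97%. By family, 59.3% of B1, 57.1% of B4 and 60.7% of LTR members lay on these chromosomes, against 40.7% of L1Md members and 81.8% of members with other L1 names.

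**Figure D4:**
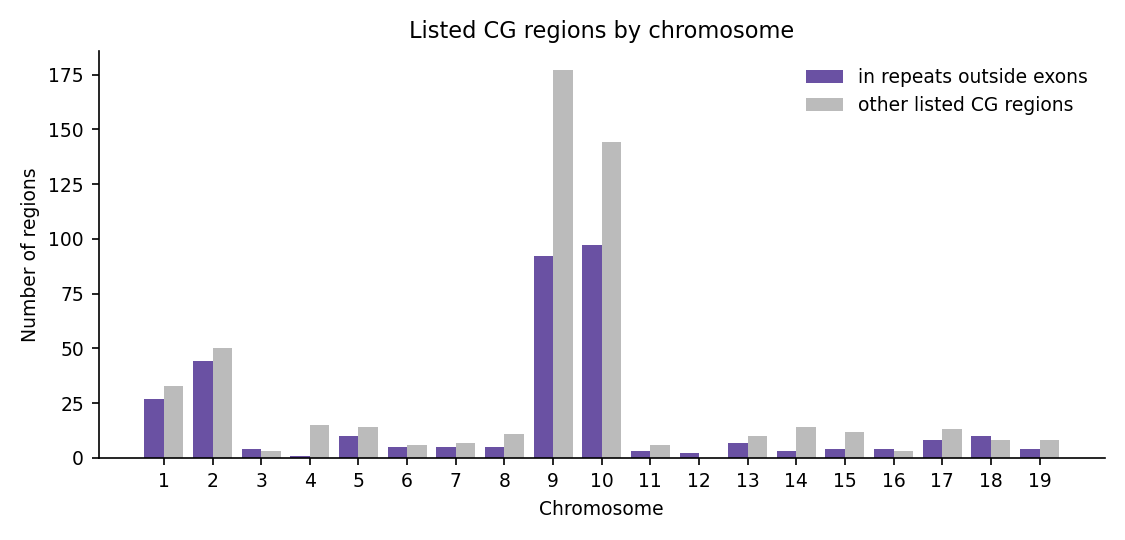
Number of listed CG regions (y axis) on each autosome (x axis), with members in repeats outside exons beside the other listed CG regions. Chromosomes 9 and 10 hold 92 and 97 members, more than all other autosomes together.

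Long regions with few cytosines were mostly found on the same chromosomes. Of 38 members over 500 bp, 33 lay on chromosomes 9 and 10, as did 36 of the 42 other CG regions over 500 bp. The place of long regions was thus much the same in members and in the rest of the CG list. The median length of the 38 members was 2214 bp with 6 cytosines. They had 0.323 listed cytosines per 100 bp, against 4.57 per 100 bp in the 299 shorter members. The longest, 5156 bp on chromosome 9 with 7 cytosines and entries for RLTR24, ORR1D2 and MER45A, was at 71.6% in the normal and 6.03% in the depressed group. In 36 of these 38 members the region was longer than the summed consensus extents of its repeat entries, as it was in 40 of the 299 shorter ones. The genomic extents of the copies are not in the table, so how much of a region lay outside its repeats was not measured. Their levels were close to the rest, with medians of 73.2 and 3.61% against 69.8 and 4.58%. Over 500 bp were 11.3% of members, 2% of the intronic regions without repeats and 13.5% of those at exons or UTRs; a long region can touch more entries, so length and membership are not independent.

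**Figure D5:**
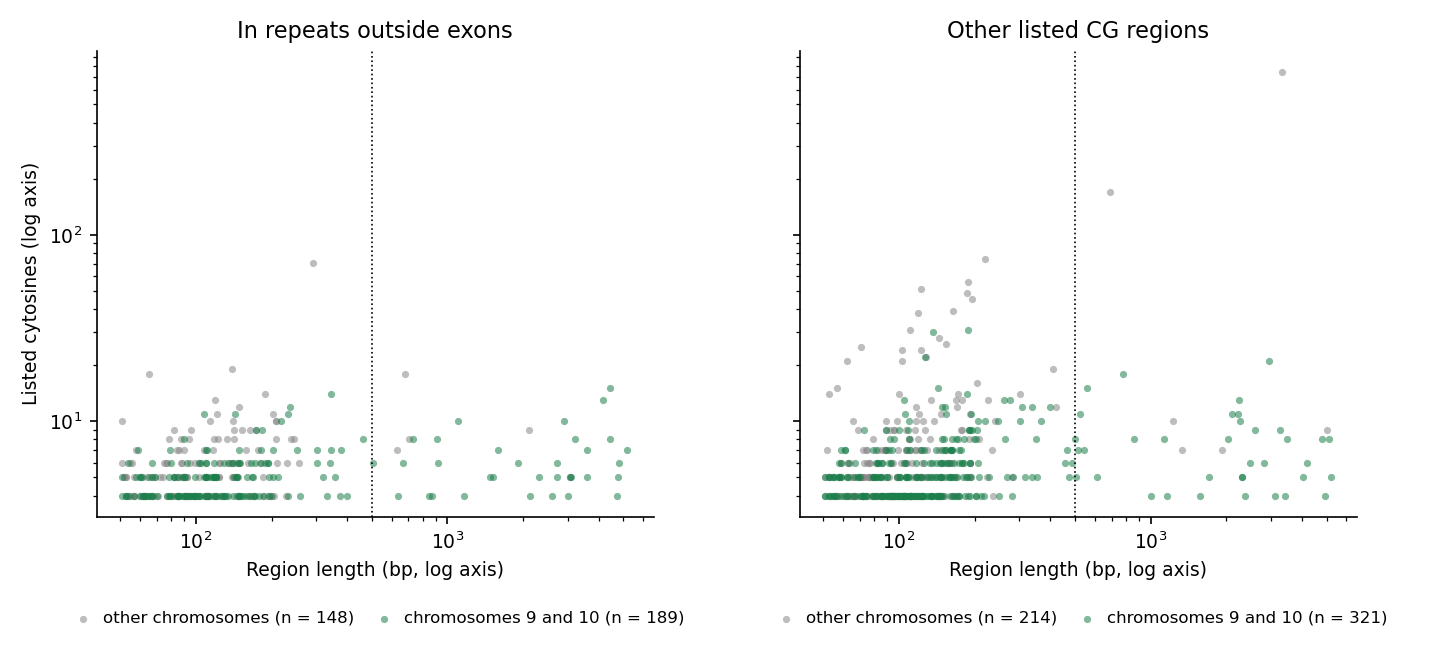
Region length (x axis, bp, log scale) and number of listed cytosines (y axis, log scale) for members (left) and other listed CG regions (right), by chromosome; the dotted line marks 500 bp. Of 38 members right of the dotted line, 33 are on chromosomes 9 and 10, as are 36 of the 42 other CG regions right of it.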

How the data were processed

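Per the submitters' processing notes, the tools were Bismark, SAMtools and Trim Galore 0.3.3, on build mm10. The region caller, its thresholds and how embryos were combined: not given in the sources used here. The authors' deposited table gives each group's mean methylation as a fraction (printed here as percent), their difference, which equals the depressed minus the normal mean, and, per the file headers, a region statistic (areaStat), a score with no stated scale. It has 18732 entries for 9707 regions, and all coordinates count from 1. Depth is unknown. Replicate numbers shared by the groups could not be used, since no value per embryo is given.

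Entries were collapsed by position and context in Python 3.11.15 with pandas 2.3.3; intervals used SciPy 1.17.1 and were tested on simulated data. Repeat families follow the table's classes: SINE/Alu is B1, SINE/B2 is split into B2 and B3 by name, SINE/B4 is B4. Overlap meant at least 1 shared base.

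The members, the lists and the alternatives were chosen with earlier results of these data known. Named were all higher members, the 3 strongest lower ones by statistic in each family, 8 promoter members, the longest member, that with the most cytosines, and genes with 3 or more members; the L1Md and IAP splits, the chromosome 3 copy, the satellite, the other IAPLTR2_Mm copies and the sequences were chosen after the values had been seen.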

Additional observations from a re-analysis of the deposited data

How the results depend on the processing

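No paired analysis was possible because the table gives 1 mean per group. The share of members lower in the depressed group stayed inside its interval in all 11 alternatives, between 97.3% (without chromosomes 9 and 10) and 99.4%. The median normal level left its interval in 4: it was 69.4% with at least 6 cytosines, 71.8% with a statistic at or above the CG median, 68.3% without chromosomes 9 and 10, and 69.4% when only regions no longer than the summed consensus extents of their repeat entries were kept, an alternative added after seeing the data. The median depressed level left it in 1, at 5.48% with at least 6 cytosines. The share of members with a SINE entry left it in 2, at 35.8% with repeat entries of 1 name and 35.2% with regions no longer than those extents, the first of which keeps no region with entries of several names. The cause of the other shifts was not tested. Without values per embryo or depth, no embryo could be left out and no level has an error of its own.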

Other observations

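Chromosome X, left out by the rule, held 5 further CG regions in repeats outside exons. An L1MdA_II copy in an intron of Pcyt1b was at 19.02% in the normal and 84.5% in the depressed group, and an L1MdA_IV copy (117691503 to 117691620) at 14.2 and 74.6%. The other L1MdA_IV copy (42305515 to 42305646) was at 86.4 and 8.73%. A MER5A1 copy stood at 67.03 and 2.42%, and an RMER17A2 copy in an intron of Phka1 at 74.7 and 12.3%. The sex of the embryos is not stated.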
